A study of Mus musculus with 3 samples.

Results

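The genes described here encode lysosomal proteins, the subunits of the proton pump that acidifies lysosomes, and a pair of transcription factors of lysosomal genes. They were chosen by name, as a list of 39 genes out of 55536 annotated genes, of which 22028 are protein coding, and all 39 were found in the deposited tables. The list holds 9 cathepsins, 8 other luminal enzymes and cofactors, 8 membrane proteins, 12 members of the proton pump (5 of its V0 sector, 6 of its V1 sector and the accessory subunit gene Atp6ap1) and the transcription factor genes Tfeb and Tfe3. The samples were primary mouse macrophages grown from bone marrow, strain C57BL/6J, exposed to Lipid A at 100 ng/ml for 60 minutes, and total RNA-seq was run on the RNA of their chromatin fraction after depletion of ribosomal RNA. Lipid A, the membrane anchor of lipopolysaccharide, is sensed by the receptor TLR4. There was 1 group of 3 biological replicates, with 1 µg, 250 ng and 500 ng of starting RNA for replicates 1, 2 and 3. Age and sex were not collected. No unstimulated sample was analysed here, so every value is a level after stimulation and no response to Lipid A can be read from it. All 3 libraries carried the same donor entry and nothing said that they came from separate animals, so a p-value here reflects the spread of these 3 libraries alone, and that spread may be technical.

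Lysosomes break down material taken up by phagocytosis, endocytosis and autophagy, and macrophages are rich in them. The vacuolar ATPase pumps protons into the lumen: its V1 sector in the cytosol splits ATP and its V0 sector in the membrane carries the protons, and the acid pH that results lets cathepsins and other hydrolases work. TFEB and TFE3 are related transcription factors that bind a palindromic E-box motif near the start of many lysosomal genes, and are held in the cytosol by the kinase complex mTORC1 while nutrients are plentiful. Chromatin-bound RNA holds nascent and partly processed transcripts, so the levels below are not levels of mature cytosolic mRNA. In RNA of a whole fraction, fewer cells of a type and less RNA per cell cannot be told apart.

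Gene expected counts were 13318395, 15352661 and 15812581 in replicates 1, 2 and 3, and the 39 genes took 0.837%, 0.911% and 0.778% of them. For a gene with no count the upper limit is 3 counts, or 0.225, 0.195 and 0.19 CPM (counts scaled to the library total) in the respective libraries, for counting error only. No library was a copy of another: chi-square per degree of freedom of the gene counts was 36.9 for replicates 1 and 2, 15.3 for replicates 1 and 3, and 36.9 for replicates 2 and 3. Replicate 2 thus stood apart from the other two. All 10 macrophage markers checked were detected, with Ptprc, which encodes CD45, at 454 TPM, while 0 of 7 neutrophil, 0 of 6 melanocyte, 0 of 7 dendritic cell and 0 of 8 T and B cell markers were. In the est_counts tables, a second deposited quantification, Zbtb46, Xcr1, Ms4a1, Cd4, Cd8a and Dct of these lists had means of 3.34, 1.92, 3.05, 2.17, 1.69 and 2.47 TPM. TPM is a level scaled by transcript length and by the library's sum, and a gene is called detected where no library falls below 1 TPM.

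The E-box sequences are shown first. The genes were chosen by name and not by this motif. It is a motif already known from many lysosomal genes, however, so its frequency here is not an independent finding. Windows from 250 bases before to 50 bases after the RefSeq gene start (GRCm38.p6) matched 32 of the 39 genes. Ctsb, Ctsh, Npc1, Atp6v0d2, Atp6v1b2, Atp6v1c1 and Atp6v1h had no entry. The core E-box CACGTG, its own reverse complement and so the same on both strands, lay in 9 of the 32 windows (28.1%), in 28.4% of 74 other lysosomal pathway genes, in 12.6% of 6313 detected coding genes and in 8.09% of all 27025 genes with a window. The 9 genes were Lamp1, Mcoln1, Ctsa, Ctsd, Ctsl, Gaa, Atp6v0b, Atp6v0d1 and Atp6v1a. The longer palindrome TCACGTGA, which contains the core, lay in 5 of 32 (15.6%) and in 12.2% of the other pathway genes, against 2.69% of detected coding genes and 1.13% of all genes. The related TCATGTGA, whose reverse complement is TCACATGA, contains neither of them and lay in 3 of 32 (9.38%, in Ctss, Grn and Atp6v0c) and in 12.2% of the other pathway genes, against 1.09% of detected coding genes. For each of the 5 genes with the longer palindrome, and for Lamp1, which had 4 matches to the core, 26 bases are printed with the core in capitals:
Mcoln1, chr8:3500464-3500489, plus strand: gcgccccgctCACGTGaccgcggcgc
Ctsa, chr2:164833751-164833776, plus strand: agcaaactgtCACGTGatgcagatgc
Ctsd, chr7:142387910-142387935, minus strand: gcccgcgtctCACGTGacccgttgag
Atp6v0d1, chr8:105566052-105566077, minus strand: ctactgcggtCACGTGagacgcggtg
Atp6v1a, chr16:44139375-44139400, minus strand: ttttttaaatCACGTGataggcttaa
Lamp1, chr8:13159136-13159161, plus strand: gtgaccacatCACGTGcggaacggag
In the first 5 lines a T stands before the core and an A after it, while the Lamp1 core shown has the T and not the A. These matches describe the letters of the window and do not show binding, which was not measured here.

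The lysosomal genes lay high among coding genes on chromatin. Of the 39, 38 were detected, beside 35.7% of all coding genes. Their median log2(TPM + 1) was 5.51, 5.77 and 5.92 in replicates 1, 2 and 3 (mean 5.73 ± 0.21, SD, n = 3, as for every value given with ± below), against 3.19 ± 0.20 over the 7870 coding genes that were detected. Levels of single genes spanned from 1164 TPM for Gpnmb to 0.27 TPM for Ctsk. In the order of mean levels, 8 of 38 neighbouring pairs had ranges over the libraries that did not overlap. Gpnmb above Ctsc, Ctsc above Ctsb, Atp6v0d2 above Tfeb and Tfeb above Ctsk were among them, and between Atp6v1e1 and Cd63 no pair of neighbours was apart.

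**Figure D1:**
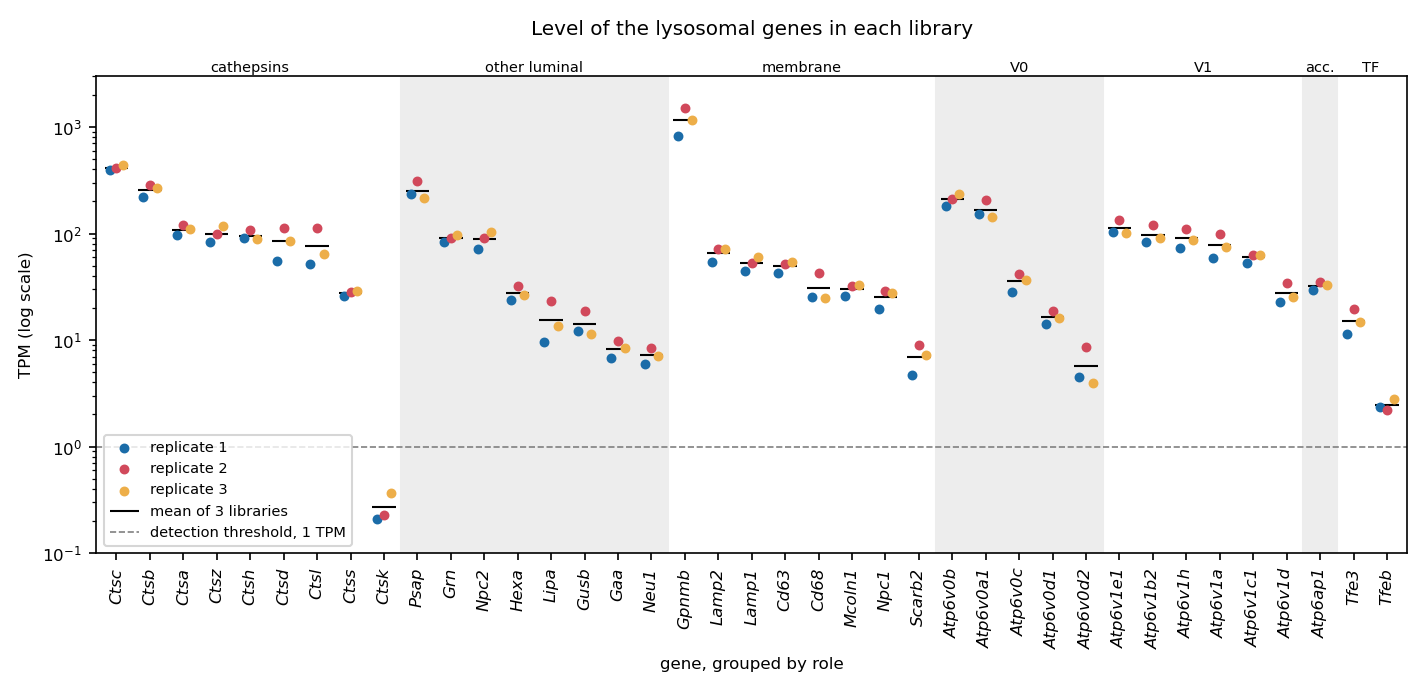
TPM of the 39 lysosomal genes (log axis) in each library, grouped by role, with V0, V1 and acc. for the sectors and the accessory subunit of the proton pump and TF for the transcription factors; points are libraries and black bars their means. Gpnmb stands highest at a mean of 1164, and Ctsk is the only gene under the detection threshold of 1 TPM.

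Among the cathepsins, the proteases of the lumen, Ctsc was the highest. It encodes dipeptidyl peptidase I, which activates granule serine proteases, and stood at 394, 411 and 440 TPM. The 3 libraries lay close together, and all were above every library of the next gene. Ctsb, a cysteine protease abundant in macrophages, was at 220, 287 and 268 TPM. Ctsa, a serine carboxypeptidase that also protects the sialidase NEU1, was at 109 TPM ± 11.7, Ctsz, a carboxypeptidase, at 99.6 ± 16.8, and Ctsh, an aminopeptidase, at 95.5 ± 10.9. These 3 overlapped one another. The aspartic protease gene Ctsd was at 55.3, 113 and 85 TPM and the cysteine protease gene Ctsl at 51.8, 113 and 63.9 TPM, both lowest in replicate 1 and highest in replicate 2. Ctss, a cysteine protease that trims the invariant chain of MHC class II, was lower and tight, at 25.7, 28.1 and 29 TPM.

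Ctsk, the collagen-degrading cathepsin of osteoclasts, was the exception of the list. It had 5, 5 and 8 counts, at 0.21, 0.23 and 0.37 TPM, low in all libraries. Its neighbour on chromosome 3, Ctss (mm10 chr3:95526786-95556403, plus strand), had 544, 527 and 552 counts. Of 8 osteoclast markers 2 were detected, the transcription factor gene Nfatc1 at 7.9 TPM ± 1.56 and the acid phosphatase gene Acp5 at 7.81 ± 1.66. Itgb3 was at 0.7, 0.9 and 1.16 TPM, near the threshold. The fusion protein gene Dcstamp was at a mean of 0.717 TPM, with 1.56 in replicate 2. Calcr, the calcitonin receptor gene, was at 0.00667, Ocstamp and Mmp9 at 0.02 each and Oscar was listed at 0. In the est_counts tables Ocstamp was at 7.14 TPM and Itgb3 at 1.43. Atp6v0d2, the V0 subunit isoform prominent in osteoclasts, is given with the pump.

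The other luminal genes ranged from 253 TPM for Psap to 7.18 TPM for Neu1. Psap, the precursor of the saposins that present sphingolipids to their hydrolases, was at 237, 308 and 214 TPM, with replicate 2 highest. Grn, which encodes progranulin, was at 90.4 TPM ± 6.68, and Npc2, the soluble cholesterol carrier, at 88.7 ± 16.1. Hexa, a subunit of beta-hexosaminidase, was lower at 27.4 ± 4.32. Lipa, the acid lipase of cholesteryl esters, was at 9.66, 23.5 and 13.6 TPM, so that replicate 2 stood well above both others. Gusb (beta-glucuronidase) was at 14.1 TPM ± 4.14, Gaa (acid alpha-glucosidase) at 8.31 ± 1.43 and the sialidase gene Neu1 at 7.18 ± 1.26.

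Gpnmb, a heavily glycosylated protein of lysosomes and phagosomes, dominated the membrane proteins and the list. Its gene (ENSMUSG00000029816.10, mm10 chr6:49036546-49070929, plus strand) was at 828, 1510 and 1154 TPM and ranked 7 among 22028 coding genes. It took 34290, 47616 and 41596 expected counts, and its lowest library lay above every library of any other gene of the list. The lysosome-associated membrane protein genes Lamp2 and Lamp1, which encode the most abundant glycoproteins of the lysosomal membrane, were at 53.8, 71.5 and 71.2 TPM and at 44.5, 53.4 and 59.7 TPM. The tetraspanin gene Cd63 was at 49.2 TPM ± 6.16, Cd68, the macrophage relative of the LAMP proteins, at 31 ± 10.1, and Mcoln1, the calcium channel TRPML1, at 30.3 ± 3.64. Npc1, which moves cholesterol out of the lysosome with NPC2, was at 25.4 ± 5.12. Scarb2, the receptor that carries glucocerebrosidase to lysosomes, was lowest at 4.71, 8.93 and 7.16 TPM.

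The genes of the proton pump were all detected, and their levels were not alike. In the V0 sector, the proteolipid gene Atp6v0b was at 183, 212 and 236 TPM and Atp6v0a1, a form of the large subunit a, at 152, 205 and 143 TPM. Atp6v0c, the main proteolipid of the ring, was lower at 28.4, 41.5 and 36.6 TPM, with no overlap with either. In the V1 sector the genes lay closer together, with Atp6v1e1 (stalk subunit E) at 113 TPM ± 18.8, Atp6v1b2 (the nucleotide-binding subunit B) at 97.9 ± 19.9, Atp6v1h (the regulatory subunit H) at 90.2 ± 19.1 and Atp6v1a (the catalytic subunit A) at 77.4 ± 19.6. Atp6v1c1 was at 59.7 ± 5.66 and Atp6v1d, which encodes a subunit of the central shaft, at 27.4 ± 6.06. Atp6ap1, whose protein assembles with V0, was at 29.6, 35 and 33 TPM.

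Subunit d of V0, which joins the ring to the shaft, comes from alternative genes. Atp6v0d1, the widely expressed form, was at 14.2, 18.6 and 16.1 TPM and Atp6v0d2 at 4.45, 8.64 and 3.92 TPM, below it in each library. The within-library difference of log2(TPM + 1), Atp6v0d2 minus Atp6v0d1, was -1.43 ± 0.38. The corresponding difference was 0.31 ± 0.09 for Lamp2 minus Lamp1 and 2.20 ± 0.42 for Tfe3 minus Tfeb. Each of the 3 differences had the same sign in 3 of 3 libraries, and each had p = 0.25 by exact permutation of the signs, two-sided (0.25 after Benjamini-Hochberg adjustment over the 3), the smallest value that 3 libraries allow. Tfe3 stood at 11.3, 19.4 and 14.8 TPM and Tfeb at 2.37, 2.21 and 2.82 TPM from 55, 50 and 51 counts. The difference of Tfe3 and Tfeb was 0.46 in the est_counts tables, in which Tfeb was at 11.5 TPM and Tfe3 at 16.4. Not scaled by length, as CPM, the difference was -0.43 for the subunit d genes, 1.54 for the Lamp genes and 3.76 for Tfe3 and Tfeb. On that scale Atp6v0d2 lay above Atp6v0d1 in replicate 2, at 20.8 against 19.3 CPM.

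Other genes of the pathway, held in 4 further lists of 97 genes, stood lower as a group. Of the 97, 67 were detected (69.1%). The median log2(TPM + 1) of the 97, detected or not, was 2.73 ± 0.28, beside 0.29 ± 0.07 over all coding genes, detected or not. The highest were Tcirg1, the a3 form of V0 subunit a, at 630 TPM ± 127, Tfec, a relative of TFEB and TFE3 of the same family, at 508 ± 106, and Cln3, a lysosomal membrane protein lost in juvenile Batten disease, at 303 ± 49.8. Tcirg1 lay above Atp6v0a1 in each library, at 486, 679 and 725 TPM. Mcoln2 was at 264 TPM ± 24 and Mcoln3 at 9.78 ± 2.52, on either side of their relative Mcoln1. Of the 18 further pump genes 9 were detected. Atp6v0a4, Atp6v0e2, Atp6v1e2 and Atp6ap1l had no count in any library, although Atp6v0e2 was at 4.73 TPM in the est_counts tables. Among luminal enzymes the lowest were Smpd1 (acid sphingomyelinase) at 0.133 and Ctse at 0.05. In the mTORC1 list, Fnip2, a partner of folliculin, followed Tfec at 145 ± 12.3, Mitf was at 36.6 ± 4.88, and Lamtor2 at 0.41 and Rragb at 0.19 were lowest.

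Replicate 1 was lowest for 31 of the 39 genes and replicate 2 was highest for 28. Of the 7870 detected coding genes, 5965 were lowest in replicate 1 and 4842 (61.5%) highest in replicate 2. The 39 genes deviated from their own means by a median of -0.22, 0.21 and 0.03 in log2(TPM + 1) in replicates 1, 2 and 3. Detected coding genes did nearly the same, at -0.21, 0.16 and 0.05. On CPM with edgeR's TMM factors, the medians of the 39 genes were 0.04, -0.01 and -0.03 and did not follow the order seen on the TPM scale. On that scale 14 genes were highest in replicate 1, 14 in replicate 2 and 11 in replicate 3. Lipa and Atp6v0d2 lay 0.41 above their means in replicate 2, Ctsl 0.37, Cd68 0.27 and Ctsd 0.24. Lipa, Atp6v0d2, Ctsl and Cd68, with Psap and Atp6v0a1, were the 6 of 38 fitted genes whose coefficient of variation from edgeR lay above the trend for their abundance, with Atp6v0d2 highest of the 6 at 0.217. The share of all fitted genes above the trend was not counted. The median coefficient was 0.153 over the 38 genes and 0.175 over all 12505 genes fitted. Without replicate 2 it was 0.114 over the 38 genes and 0.128 over all genes fitted, lower for both.

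**Figure D2:**
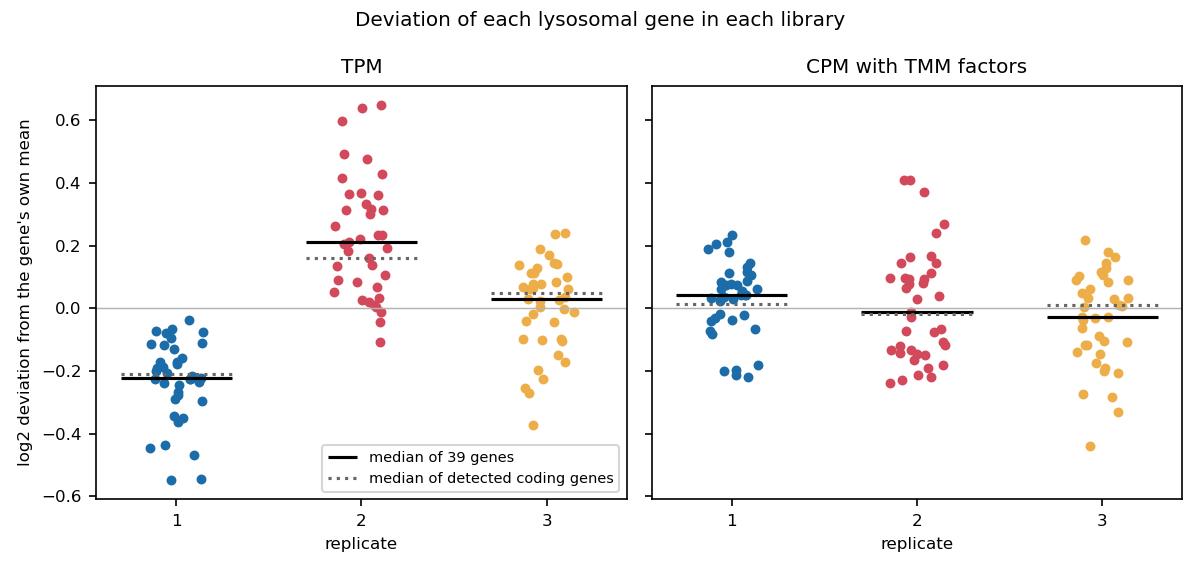
Deviation of each of the 39 genes from its own mean in each library, in log2(TPM + 1) on the left and log2(CPM + 1) with TMM factors on the right; points are genes, solid bars the median of the 39 and dotted bars the median of detected coding genes. On the left the medians are -0.22, 0.21 and 0.03 for replicates 1, 2 and 3, and on the right they lie between -0.03 and 0.04.

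Much of the signal of these genes fell on transcripts annotated with a retained intron. Of their summed TPM, protein-coding transcripts held 49.3% ± 2.46, retained-intron transcripts 43.1% ± 1.43, processed transcripts 4.24% ± 0.37 and transcripts subject to nonsense-mediated decay 3.36% ± 0.99. Over all coding genes the first 2 shares were 48.2% ± 1.49 and 39.3% ± 1.65. Without Gpnmb the retained-intron share of the other genes was 43.2%. The leading transcript was coding in 23 genes, a retained-intron transcript in 14 and a processed transcript, which has no annotated reading frame, in 2. In the est_counts tables these numbers were 17, 16 and 6, and decay transcripts held 9.18% of the summed TPM. Chromatin RNA also holds transcripts not yet spliced, and their intronic reads can fall on retained-intron transcripts. Reads of single introns were not counted, so retained introns and RNA not yet spliced cannot be told apart here.

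**Figure D3:**
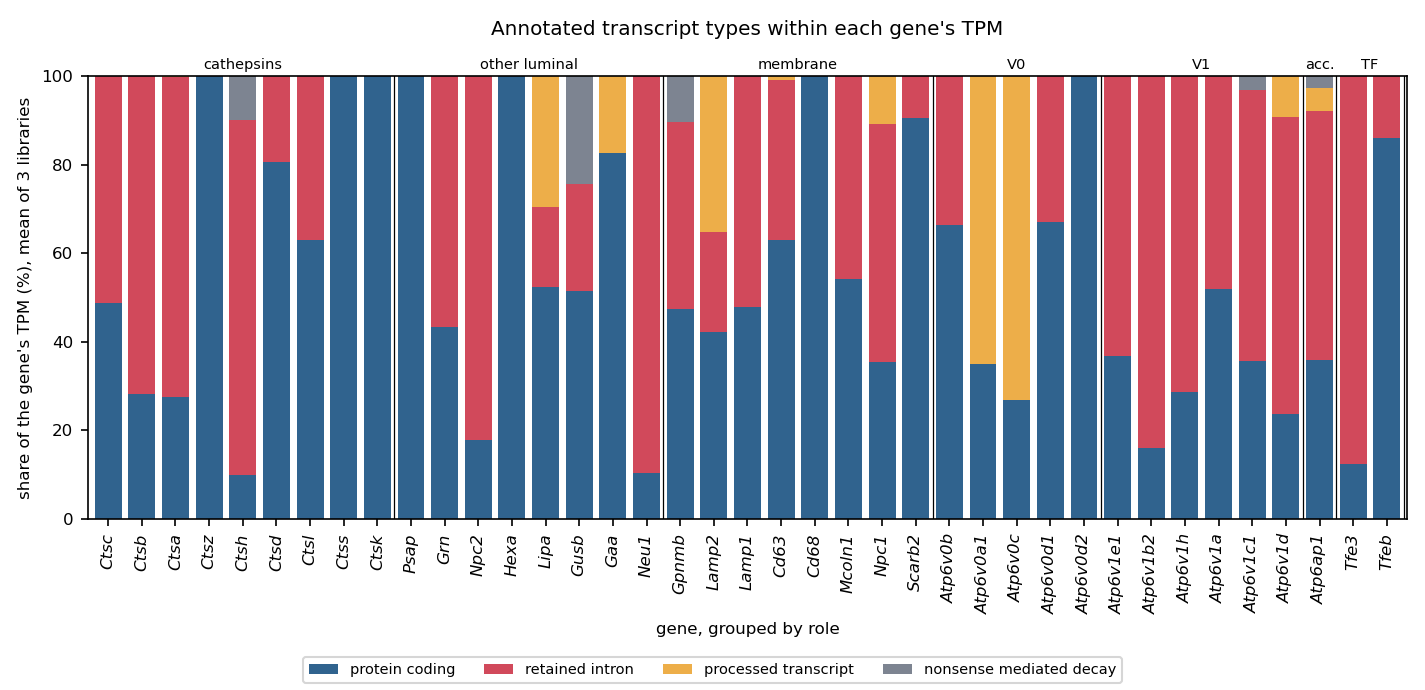
Share of each gene's TPM by annotated transcript type, in percent, as means of 3 libraries, with genes grouped by role as in the plot of levels. Neu1, Tfe3, Npc2, Atp6v1b2 and Ctsh are mostly retained-intron transcripts, and Atp6v0a1 and Atp6v0c mostly processed transcripts. Ctsz, Ctss, Ctsk, Psap, Hexa and Atp6v0d2 have only coding transcripts annotated, so their share of 100% was fixed in advance. Cd68, which also has a processed transcript, is wholly coding here but had 7.02% in that transcript in the est_counts tables.

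Gpnmb showed how a gene's level was divided. Its full coding transcript Gpnmb-201 was at 431, 573 and 546 TPM, Gpnmb-205, a retained-intron transcript of 1 exon, at 150, 388 and 248, and Gpnmb-204 at 170, 335 and 221. A short decay transcript, Gpnmb-202, was at 64.2, 190 and 120 TPM. The coding transcript was lowest in replicate 1 and differed little between the others, while the rest were highest in replicate 2. In the est_counts tables Gpnmb-202, 365 bases long, was at 513 TPM in place of 125. Atp6v0c had 73.3% ± 2.2 of its TPM in processed transcripts, led by Atp6v0c-205 at 24.2 TPM against 9.39 for the coding Atp6v0c-201, and Atp6v0a1 had 65% ± 3.03. For Lamp2, which makes proteins with different tails by alternative splicing, the coding transcripts Lamp2-202 and Lamp2-201 were at 22.7 and 4.28 TPM and the processed transcript Lamp2-205 at 23.

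Retained-intron and coding transcripts were then compared within each gene. The test was limma on log2 of retained-intron TPM over coding TPM, with 0.5 added to each, fitted on 5601 genes that have both kinds and adjusted over all of them by Benjamini-Hochberg. Of the 29 lysosomal genes tested, 14 had retained-intron transcripts higher at an adjusted p under 0.05, beside 35.5% of all genes tested, and 10 had coding transcripts higher, beside 31.9%. The other 5, Gpnmb, Ctsc, Lamp1, Mcoln1 and Atp6v1a, passed the test in no direction. Ctsc had retained-intron transcripts higher in the est_counts tables (1.05) and when TPM was averaged over annotated transcripts (0.65), and Gpnmb had coding transcripts higher without replicate 2 (-0.37). Atp6v1a had coding transcripts higher in the est_counts tables (-0.998). Its ratio turned the other way when TPM was averaged over annotated transcripts. Over the 29 genes the ratio had a median of 0.13, and over all genes of 0.08. The other 10 of the 39 have no annotated retained-intron transcript and could not be tested.

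Ctsh had the highest ratio in the expected-count tables. In the est_counts tables it was at 2.00, below Neu1 (3.70), Atp6v1b2 (2.91), Npc2 (2.80), Ctsb (2.21) and Tfe3 (2.14). The retained-intron transcripts of Ctsh were at 70.9, 89.8 and 69.7 TPM and its coding transcripts at 8.63, 8.24 and 11.1, far apart in each library (log2 ratio 2.98, SE 0.17, limma adjusted p = 2.41e-06). Tfe3 was next in the expected-count tables, with 10.6, 16.9 and 12.3 TPM against 0.76, 2.57 and 2.5 (2.58, SE 0.22, limma adjusted p = 1.76e-05). Its relative Tfeb lay on the other side, with 0.37, 0.24 and 0.43 TPM in retained-intron and 2, 1.97 and 2.38 in coding transcripts (-1.63, SE 0.22, limma adjusted p = 0.000267), a call that was lost with the mean TPM per annotated transcript (-0.0087). Neu1 had 5.09, 8.05 and 6.29 TPM against 0.85, 0.41 and 0.85, and its partner Ctsa 66.6, 87 and 83.4 against 29.3, 32.5 and 27.9, with ratios of 2.54 (SE 0.26) and 1.38 (SE 0.14). The cholesterol carrier genes Npc2 and Npc1 were at 2.18 (SE 0.13) and 0.57 (SE 0.16), Ctsb at 1.35 (SE 0.13) and Grn at 0.38 (SE 0.15). The call of Grn was near the threshold (limma adjusted p = 0.0472) and was lost without replicate 1, without replicate 3, with a pseudocount of 0.1, with no filter and with no variance trend, and that of Npc1 was lost without replicate 2.

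Coding transcripts were higher in Scarb2, with 4.51, 7.69 and 6.41 TPM against 0.2, 1.23 and 0.75 (-2.52, SE 0.21, limma adjusted p = 1.65e-05), and in Ctsd, with 48.6, 87 and 65.6 against 6.75, 26.4 and 19.4 (-2.06, SE 0.21). Lipa was at -1.37 (SE 0.18), Gusb at -0.98 (SE 0.22), Lamp2 at -0.87 (SE 0.14), Cd63 at -0.78 (SE 0.14) and Ctsl at -0.75 (SE 0.13). Membrane proteins had 1 gene with retained-intron transcripts higher and 3 with coding transcripts higher of 7 tested. Cathepsins had 3 and 2 of 6, and the other luminal genes 3 and 2 of 5. The shares over all genes tested were 35.5% and 31.9%.

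In the proton pump, 5 of 6 V1 genes of the list had retained-intron transcripts higher and 0 had coding transcripts higher. Both V0 genes of the list that could be tested had coding transcripts higher. Of all genes tested, 35.5% had retained-intron transcripts higher and 31.9% coding transcripts. Atp6v1b2 led, with 69.1, 103 and 74.7 TPM against 13.9, 17 and 15.5 (2.36, SE 0.14, limma adjusted p = 2.8e-06), then Atp6v1d at 1.43 (SE 0.15), Atp6v1h at 1.30 (SE 0.14), and Atp6v1e1 and Atp6v1c1 at 0.77 each (SE 0.13). Atp6ap1 was at 0.63 (SE 0.16). Atp6v0d1 was at -0.98 (SE 0.19) and Atp6v0b, with 126, 133 and 158 TPM in coding transcripts, at -0.97 (SE 0.14). The difference between the sectors was not tested, and it was not shared by the other V0 genes tested: Tcirg1 and Atp6v0a2, which encode further forms of subunit a, had retained-intron transcripts higher at 0.77 (SE 0.16) and 0.90 (SE 0.30). The V1 gene tested from the other pathway lists passed in no direction (-0.62, SE 0.25). In the est_counts tables that gene had coding transcripts higher (-1.60). With the mean TPM per annotated transcript in place of the sum, the calls of Atp6v1b2 (0.071) and Atp6v1c1 (0.19) were lost. Of the 6 V1 genes of the list, 3 had retained-intron transcripts higher in the est_counts tables and 1, Atp6v1a, had coding transcripts higher. There, 1 of the V0 genes of the list kept its call.

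**Figure D4:**
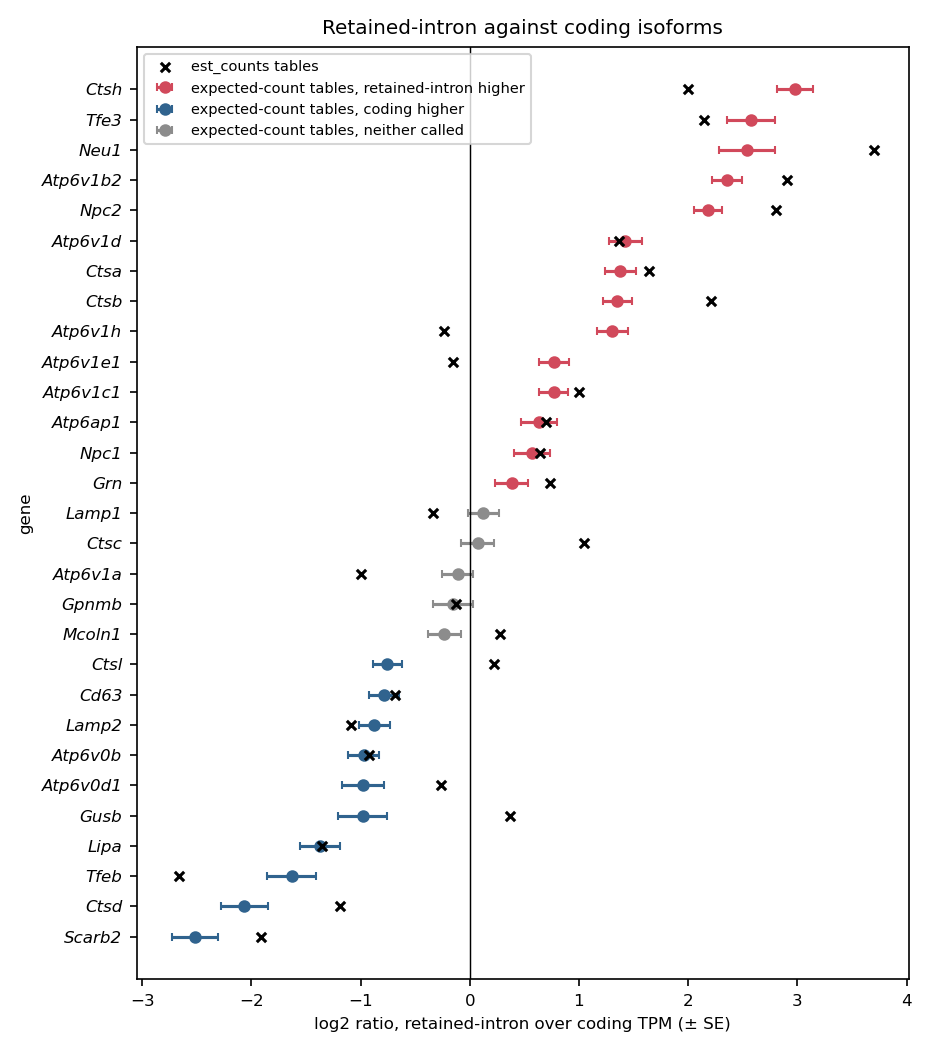
Log2 ratio of retained-intron to coding TPM for the 29 genes tested, with 0.5 added to each; circles are limma estimates with their SE from the expected-count tables, coloured by the call, and crosses the estimates from the est_counts tables. Ctsh is highest at 2.98 and Scarb2 lowest at -2.52, and the crosses of Ctsl, Gusb, Atp6v1e1, Atp6v1h, Lamp1 and Mcoln1 lie across 0 from their circles.

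The ratio depended on the quantification for some genes. Of the 29 genes in the est_counts tables, 14 had retained-intron transcripts higher, beside 46.7% of the genes tested there, and 8 had coding transcripts higher, beside 32.4%. Of the 14 and 10 genes called first, 12 and 7 kept their call. Gusb changed to the opposite call (0.37), Ctsl moved to 0.22, Atp6v1e1 to -0.15 and Atp6v1h to -0.23, each uncalled, and the call of Atp6v0d1 was lost. Ctsa, Ctsb, Ctsh, Npc2, Neu1, Tfe3, Atp6v1d and Atp6ap1 kept retained-intron transcripts higher, and Ctsd, Lipa and Scarb2 coding transcripts, under all 10 alternatives tried. Reads of exons that transcripts share have to be divided among them, and errors of that division are not covered by the SE.

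Introns lying whole within these transcripts were looked up in the annotation. Of 75 retained-intron transcripts of the list, 28 (37.3%) hold at least 1 whole intron of a coding transcript within an exon, beside 31.2% over all genes tested, and the others hold none. Ctsb, Npc2, Atp6v1d and Atp6v1e1, called with retained-intron transcripts higher, have no transcript that holds a whole intron. In Ctsh only Ctsh-203 holds one, at a mean of 18.2 TPM, where its retained-intron transcripts together had 76.8. A call is thus of a transcript class and not of intron reads. The 28 hold 39 distinct introns in 15 genes, of 60 to 2523 bases with a median of 210, against a median of 275 over 6249 introns of all genes tested. All 39 begin with GT and end with AG, as do 98.1% of all those introns. Some of these introns share a donor site, and the 39 have 36 distinct ones. Their first 6 bases were GTGAGT in 8 of 36 (22.2%, against 14.35% of 5820 over all genes tested), 3 of them in Cd63-205 alone, and GTAAGT in 4 (11.1%, against 10.05%). The donor site is printed for an intron of 5 genes with retained-intron transcripts higher, as the last 10 exon bases and the first 20 intron bases, with the first 6 intron bases in capitals:
Ctsh intron 8: cataggcaagGTAACTgtgggtggcctcag
Atp6v1b2 intron 6: acacaacgagGTGAGGgcagatggacttgt
Neu1 intron 3: aggcattcagGTTTCAccctgtggatagga
Tfe3 intron 6: gagatctccgGTAAGTgttagggacttggc
Atp6v1h intron 4: tatgctgcagGTGAGTgtgatatactaacc
These introns lie on the plus strand of mm10. The TPM given next are of the whole annotated transcript and not of the intron. Intron 8 of Ctsh (chr9:90067109-90068404, 1296 bases) lies within Ctsh-203, at 15.6, 21.7 and 17.4 TPM. Intron 6 of Atp6v1b2 (chr8:69102591-69102761, 171 bases) lies within Atp6v1b2-202, at 17.7, 21.8 and 15.9 TPM. Intron 3 of Neu1 (chr17:34932829-34934002, 1174 bases) lies within Neu1-202, at 4.77, 8.05 and 6.29 TPM. Intron 6 of Tfe3 (chrX:7769548-7770773, 1226 bases) lies within Tfe3-208, at 3.63, 5.74 and 4.58 TPM, and intron 4 of Atp6v1h (chr1:5093453-5095614, 2162 bases) within Atp6v1h-206, at 22.2, 31.6 and 22.4 TPM. In the expected-count tables the transcript shown was also the highest of its gene for Ctsh, Neu1, Tfe3 and Atp6v1h. For Atp6v1b2 the highest was Atp6v1b2-203, at 35.8 TPM. In the est_counts tables Tfe3-212 lay above Tfe3-208, at 4.45 against 4.4 TPM, and Ctsh-203 was not the highest of its gene either. Of the 5 donor sites, those of Tfe3 and Atp6v1h carry the 2 words counted above and the other 3 do not.

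Of the other pathway genes, 49 could be tested. Retained-intron transcripts were higher in 13 (26.5%, beside 35.5% of all genes tested) and coding transcripts in 22 (44.9%, beside 31.9%). Of the 51 tested in the est_counts tables, 22 were higher in each direction, where 46.7% and 32.4% of all genes were. Rptor, the scaffold of mTORC1, had the highest ratio at 4.49 (SE 0.36), with 23.4 TPM against 0.807, and Tpp1, a tripeptidyl peptidase, was at 2.04 (SE 0.16). On the coding side were Wdr7, a partner of the proton pump, at -3.23 (SE 0.16), Mcoln3 at -2.68 (SE 0.21) and Mtor at -2.64 (SE 0.21). Tcirg1 was at 0.77 (SE 0.16), its retained-intron transcripts summing to 396 TPM and its coding ones to 229.

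Gene levels also differed between the quantifications. A higher mean TPM was seen in the est_counts tables for 38 of the 39 genes, by a median ratio of 1.51, close to the 1.58 of detected coding genes, and only Cd63 was lower (ratio 0.939). The largest ratios were those of Tfeb (4.67), Ctsl (3.61, at 275 TPM in place of 76.2) and Atp6v0d2 (2.79). Lamp2, Ctss, Psap and Tfe3 had ratios under 1.1. Transcripts under 1000 bases held 34.4% of the summed TPM of the 39 genes in the expected-count tables and 52.9% in the est_counts tables, and the leading transcript was the same in both for 20 genes. The order of the top 3 genes, Gpnmb, Ctsc and Ctsb, was the same in both.

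**Figure D5:**
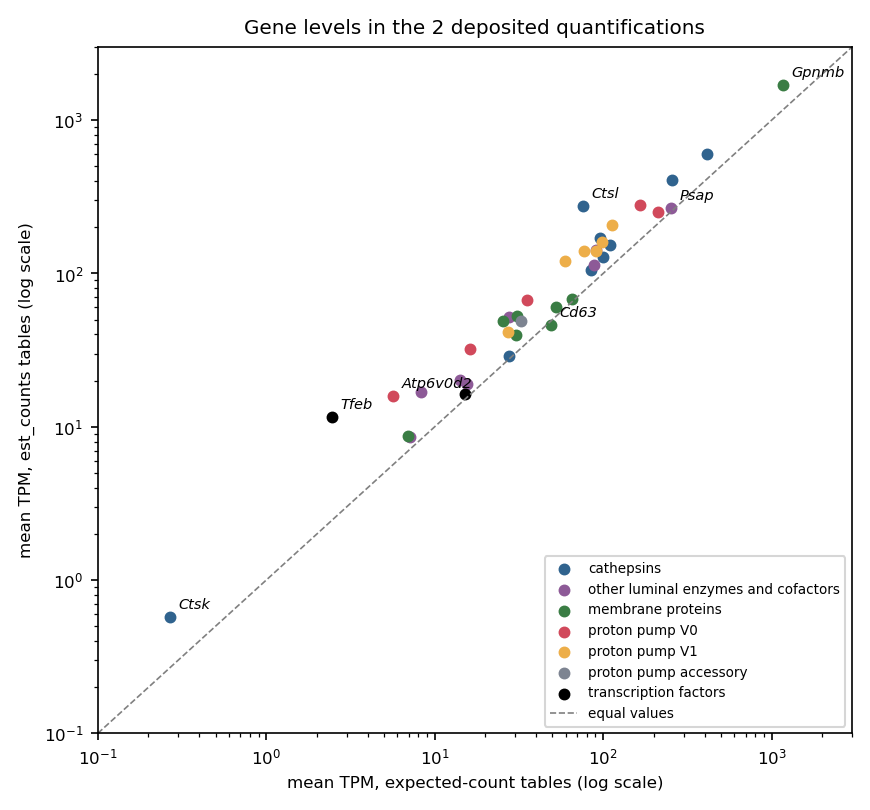
Mean TPM of the 39 genes in the expected-count tables against the est_counts tables, both on log axes, coloured by role, with a dashed line of equal values. All genes but Cd63 lie above the line, and Tfeb and Ctsl lie farthest from it.

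Some levels are uncertain because genes overlap and no source used here gives the strand setting. Ctsc overlaps the noncoding gene Gm26522, which lies on the opposite strand within it and was at 96.6 TPM, Ctsa overlaps Pltp (36.3 TPM) and Neurl2 (12.4 TPM), and Npc1 overlaps Rmc1 (28.7 TPM). Ctsd shares a strand with Gm49369 (27.3 TPM), and Ctss with the pseudogene Hmgb1-ps5 (10.6 TPM). Further overlaps on the opposite strand include Ctsz with Nelfcd (16.2 TPM), Lamp1 with Grtp1 (14 TPM), Atp6v1e1 with Slc25a18 (12.3 TPM) and Ctsb with Fdft1 (6.02 TPM). For all genes with such overlaps, reads could have been counted for the neighbour or for the member. The size of this was not tested.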

How the data were processed

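Total RNA-seq of the chromatin fraction was analysed in 3 libraries. Per the file headers, the authors deposited for each library a gene and a transcript table with expected counts and TPM, in the column naming of RSEM, and a transcript table with estimated counts (est_counts) and TPM, in that of kallisto. Programs, versions and strand setting: not given in the sources used here. The assembly is mm10 per the labels, and symbols and transcript types are of GENCODE M21.

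From these, levels (TPM of the gene table), list medians of log2(TPM + 1) and shares per transcript type were computed with python. The isoform ratio was tested with limma 3.58.1 (intercept only, variance trend, pseudocount 0.5, mean summed TPM of at least 1), with Benjamini-Hochberg adjustment over 5601 genes. The spread used edgeR 4.0.16 on expected counts rounded to whole numbers (TMM, filterByExpr). Both were tested on simulated data. The simulated isoform values held no reads shared between transcripts, so errors in dividing such reads were not tested. The rows that name no gene, with 1.40%, 0.352% and 0.354% of expected counts, were left out. Members, lists and tests were chosen with earlier results of these data known. All 39 members may be named, and of the other pathway lists the 6 highest and 2 lowest by level and up to 4 with the largest ratios in either direction. Promoter sequences are from RefSeq (GRCm38.p6), and donor sites were read from the GENCODE transcripts.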

Additional observations from a re-analysis of the deposited data

How the results depend on the processing

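No paired analysis was possible because there is 1 group. The isoform counts of the 39 genes stayed within 1.5 times under 9 of the 10 alternatives. With the mean TPM per annotated transcript, coding transcripts were higher in 5 genes in place of 10. Among genes called in either setting, the ratio then turned for Ctsl (1.5), Lamp2 (0.66), Cd63 (1.15), Atp6v0b (0.024), Atp6v1a (2.14), Npc1 (-1.28) and Grn (-0.19). In the est_counts tables it turned for Ctsl (0.22), Gusb (0.37), Atp6v1e1 (-0.15) and Atp6v1h (-0.23), and 3200 of all genes had retained-intron transcripts higher in place of 1987. At a mean summed TPM of at least 5, where fewer genes are tested, 1116 of all genes had coding transcripts higher in place of 1785. The causes of the other changes were not tested. The number detected was 38 at 0.5 TPM and 35 at 5 TPM.

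The list median of 5.73 was 6.09 in the est_counts tables, 6.5 on CPM and 7.92 with TPM rescaled over coding genes, which shifts every gene. The median deviation of replicate 1 turned from -0.22 to 0.044 with TMM and 0.057 with RLE factors, and that of replicate 2 from 0.21 to -0.035 with RLE factors. The common coefficient of variation of 0.181 was 0.195 with no filter, and 0.125 to 0.206 with a replicate left out. The median over members was 0.158 with no filter, and 0.114 to 0.196 with a replicate left out. Genes with few counts, Ctsk and Tfeb, limit what depth can show.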
